A study of Homo sapiens with 6 samples.

Results

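The strongest CEBPB sites of Calu-3 cells at which no KLF5 peak was listed numbered 6397, of 69386 CEBPB peaks in all. They were chosen by the CEBPB signal and by position. A peak had to rank above the 90th percentile of the authors' signal within the Calu-3 CEBPB list, which left 6940 peaks, and it had to share not even 1 bp with a KLF5 peak of either Calu-3 or 16HBE14o- cells. These peaks are called strong KLF5-free CEBPB peaks here, meaning that no KLF5 peak was listed over them and not that KLF5 was shown to be missing. The peaks came from chromatin immunoprecipitation with sequencing (ChIP-seq) of CEBPB in Calu-3, with KLF5 in Calu-3 and KLF5 in 16HBE14o- as the other groups, 2 samples each. All cells were untreated and grown in DMEM with 10% FBS. Calu-3 is a line from a lung adenocarcinoma, 16HBE14o- is an immortalised bronchial epithelial line, and CEBPB was profiled in Calu-3 only among the samples analysed here. Both CEBPB samples were precipitated with the antibody sc-7962. For KLF5, 2 antibodies were used in Calu-3, a rabbit antibody in 1 sample and sc-398470 in the other, whereas both 16HBE14o- samples had sc-398470.

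CEBPB is a basic leucine zipper transcription factor that binds DNA as a dimer with itself or with other members of the C/EBP family. It is known for its part in acute-phase and inflammatory gene expression and in the differentiation of several tissues. KLF5 is a Krüppel-like factor whose zinc fingers bind GC-rich and CACCC-type sequences, and it is known as a regulator of epithelial cells. The strong KLF5-free peaks are therefore the places where CEBPB was most strongly enriched in an airway line without a called KLF5 peak at the same position. Regions are given by hg19 position, 1-based, with no genes assigned and no sequence shown, because no hg19 annotation or sequence was used here.

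Each group was deposited as 1 list made from both of its samples, so no value below has an error between samples, and whether the samples came from separate cultures was not stated. Sequencing depth is unknown. The Calu-3 KLF5 list held 1510 peaks and the 16HBE14o- KLF5 list 3262. Peaks are not replicates, so the intervals, which are exact 95% binomial intervals for shares and Newcombe intervals for differences, cover counting error only, and p-values compare classes of peaks within these lists. The KLF5 lists differ in length and in antibody as well as in cell line, and these cannot be told apart.

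Most of the strongest CEBPB peaks had no KLF5 peak, but the share without KLF5 was lower near the very top of the CEBPB ranking. Of the 6940 strongest peaks, 6397 were KLF5-free (92.2%, 91.5 to 92.8), where 98.2% of all CEBPB peaks were. Of the remaining 543 peaks, 364 had a Calu-3 KLF5 peak only, 117 had a 16HBE14o- KLF5 peak only and 62 had both. The KLF5-free share was 96.3% (94.6 to 97.6) between the 90th and 91st percentiles of signal. It was 73.9% (70.4 to 77.1) in the last percentile, where 162 of 696 peaks had a Calu-3 KLF5 peak and 44 had a 16HBE14o- one. Among the 100 strongest CEBPB peaks, 58 were KLF5-free. These shares describe the choice of peaks and were not tested, since both the signal and the overlap were used to choose them. The KLF5 lists held 1510 and 3262 peaks, against 69386 CEBPB peaks, which limited how many CEBPB peaks could carry one. The high KLF5-free shares are therefore no measure of how far CEBPB and KLF5 bind apart.

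**Figure D1:**
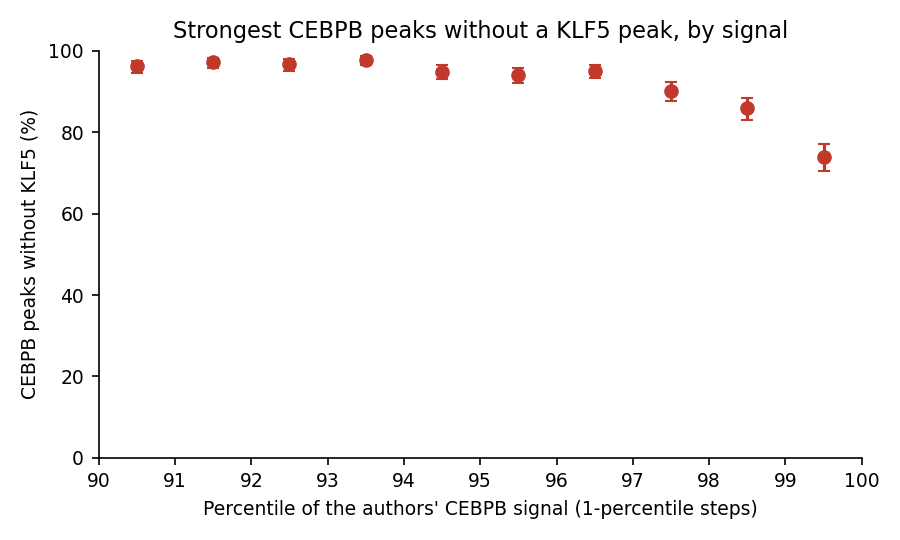
Share of CEBPB peaks without a KLF5 peak of either line (y axis, %) in each step of 1 percentile of the authors' CEBPB signal (x axis), with exact 95% intervals as bars. The share lies between 94.0% and 97.8% up to the 97th percentile and is 73.9% in the last step.

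By median width, the strong KLF5-free peaks were wider than the lower peaks without KLF5 and narrower than the strongest with KLF5. Their summits were central. Their median width was 244 bp, and the middle 50% spanned 212 to 290 bp, against a median of 291 bp for the strongest peaks with KLF5 and 144 bp for the lower 90% without KLF5. The summit lay at a median of 49.3% of the peak's width, with 80% of the summits between 37.7% and 60.7%. In the lower 90% without KLF5, 80% of the summits lay between 22.6% and 74.0%, so the summits of the strong peaks were closer to the middle. The strongest peaks with KLF5 were alike in this, with 80% of the summits between 38.4% and 61.9%. Every one of the 6397 passed a q-value of 0.05, as did all 543 of the strongest peaks with KLF5, 46.3% of all CEBPB peaks and 40.1% of the lower peaks without KLF5. The strong KLF5-free peaks made up 9.22% of the CEBPB peaks and 13.95% of the length that the list covered. Width, p and q come from the same peak calls as the signal, so these values are a description as well.

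The threshold fell within a continuous range of signal. The 3 peaks just inside it had a signal of 5.44 and a −log10 p of 9.86. They lay on chromosomes 18, 12 and 14 and were 206 to 208 bp wide. Just outside it, several peaks were tied at a signal of 5.43. The 3 KLF5-free ones taken from that tie had a −log10 p of 16.2 and lay on chromosome 7. A peak just outside could therefore have a higher −log10 p than one just inside. The strongest KLF5-free peak had a signal of 61.3, and the median signal was 7.54, at percentile 94.7.

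The 10 strongest KLF5-free peaks lay on 9 chromosomes. The highest peak of the whole CEBPB list, at chr4:154582359-154583062, had a signal of 61.3. Its nearest KLF5 peak was a 16HBE14o- peak 174 kb away, and another strong KLF5-free CEBPB peak lay 4830 bp away. The next, at chr15:68132306-68132715, had a signal of 54.1 and the highest −log10 p of the list, 281. It had a Calu-3 KLF5 peak at 173 kb and a 16HBE14o- KLF5 peak at 177 kb. The third, at chr12:129423427-129423795 with a signal of 46.5, had its nearest KLF5 peak, a Calu-3 one, at 115 kb.

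Of these 10 peaks, 1 had a KLF5 peak within 100 kb, as did 29.8% of all 6397. It was the fourth, at chr1:36952522-36952860, with a Calu-3 KLF5 peak 22.3 kb away. The fifth, at chr13:73635927-73636925, was the widest of all 6397, at 999 bp. It stood 968 bp from another strong KLF5-free peak, whereas its nearest KLF5 peaks were 2642 kb away in 16HBE14o- and 22620 kb away in Calu-3. The sixth, at chr8:11528861-11529171, had a Calu-3 KLF5 peak at 191 kb. The seventh, at chr18:66446496-66446768, and the ninth, at chr1:72832152-72832509, had the nearest KLF5 peak at 1497 kb and 2590 kb. The eighth was at chr17:16497029-16497407, with KLF5 at 212 kb, and the tenth at chr11:19265681-19265986, with KLF5 at 3242 kb. The median distance from these 10 peaks to KLF5 was 202 kb, against 288 kb over all 6397.

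For contrast, the 5 strongest CEBPB peaks with KLF5 had signals from 34.5 to 50.4, and each carried a Calu-3 KLF5 peak and no 16HBE14o- one. They were at chr2:12596420-12596940, chr1:31584135-31584406, chr14:74409819-74410146, chr2:47194325-47194751 and chr21:40203433-40203934. The Calu-3 KLF5 peaks over them ranged from percentile 66.3 to 98.9 of the KLF5 signal. The first of them had a strong KLF5-free CEBPB peak 55 bp away, so sites with and without a called KLF5 peak could stand side by side.

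A KLF5 peak was seldom listed in the immediate neighbourhood of a strong KLF5-free peak, but more often than for weaker CEBPB peaks that also lacked KLF5. Within 10 kb, 440 of the 6397 had a KLF5 peak of either line (6.88%, 6.27 to 7.53), against 2192 of the 61765 peaks of the lower 90% (3.55%, 3.404 to 3.70), where 3.86% of all KLF5-free CEBPB peaks had. The difference of 3.33 points (2.72 to 3.99) passed the threshold of 0.05 in Fisher's exact test, two-sided and adjusted over 9 tests (adjusted p = 5.3e-33). The share was higher in the strong peaks on 21 of the 23 chromosomes that held them, the exceptions being chromosomes 4 and 13. Compared only with lower peaks of a q-value of 0.05 or less, the difference was 2.38 points.

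At 100 kb the shares were 29.8% of the strong KLF5-free peaks and 19.96% of the lower peaks, a difference of 9.89 points (8.73 to 11.1; adjusted Fisher exact p = 6.4e-70). At 1 kb they were 1.16% and 0.732%, with 74 strong peaks concerned, where 0.772% of all KLF5-free CEBPB peaks had such a KLF5 peak. That difference of 0.42 points passed the threshold (adjusted Fisher exact p = 0.00067). Against lower peaks of a q-value of 0.05 or less it was 0.13 points and no longer passed (adjusted Fisher exact p = 0.423). The call at 1 kb therefore depended on which weaker peaks were compared, whereas those at 10 and 100 kb passed the threshold against both sets of weaker peaks.

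The excess was seen with each KLF5 list alone. A Calu-3 KLF5 peak lay within 10 kb of 2.86% of the strong KLF5-free peaks and 1.47% of the lower peaks (difference 1.39 points, 0.99 to 1.83; adjusted Fisher exact p = 2.6e-14). For 16HBE14o- KLF5 peaks the shares were 4.92% and 2.51% (difference 2.41 points, 1.90 to 2.99; adjusted Fisher exact p = 1.3e-24). Among strong KLF5-free peaks with a KLF5 peak of 1 line only within 10 kb, it was a Calu-3 one in 125 of 382 cases (32.7%), against 642 of 1924 (33.4%) for the lower peaks. The difference of -0.65 points (-5.64 to 4.63; adjusted Fisher exact p = 0.858, over a family of 3 distances) did not pass the threshold, and its interval allows an excess for either line of about 5 points. The share with a KLF5 peak of either line within 10 kb differed between chromosomes, from 1.58% of the strong peaks on chromosome 4 to 21.99% on chromosome 20, where the lower peaks stood at 1.97% and 17.5%.

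**Figure D2:**
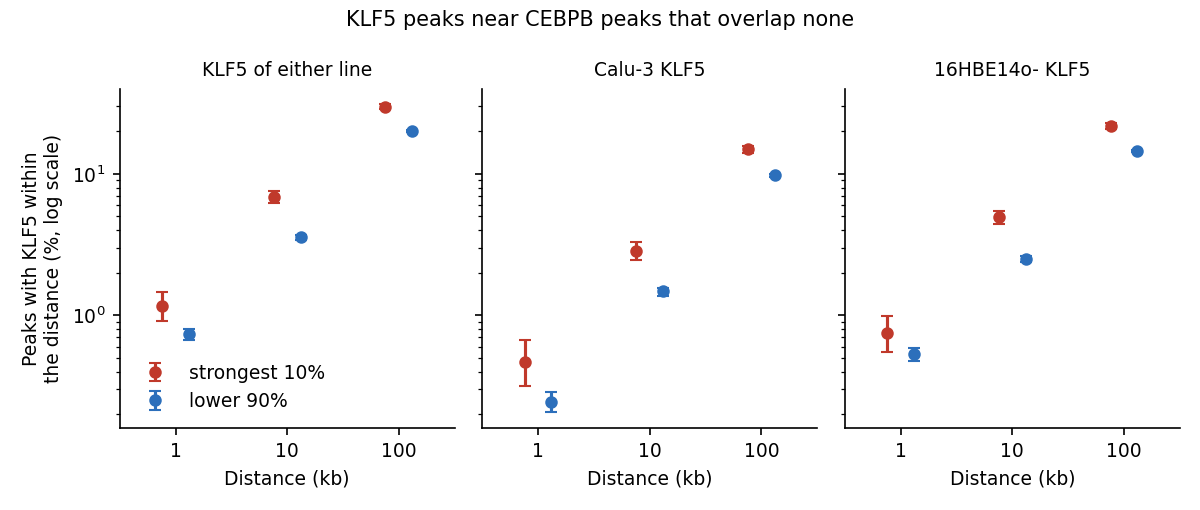
Share of CEBPB peaks with a KLF5 peak within 1, 10 or 100 kb (x axis) but not overlapping, in % on a log axis, for the strongest 10% (red) and the lower 90% (blue) of the KLF5-free CEBPB peaks. Bars are exact 95% intervals; the red points lie above the blue ones at each distance, for either line's KLF5 and for each list alone.

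The 5 strongest of the 74 peaks with a KLF5 peak within 1 kb show how close the neighbours came. At chr3:189111481-189111790, a CEBPB peak of percentile 99.97 and −log10 p 200 had a Calu-3 KLF5 peak of percentile 49.1 at 354 bp. At chr5:179049701-179050108 a 16HBE14o- KLF5 peak lay 511 bp away, and at chr20:821759-822052 another lay 810 bp away. At chr9:93959994-93960401 and chr14:62019666-62020028 a Calu-3 KLF5 peak lay 196 bp and 463 bp away. In each of these 5 cases only 1 of the 2 KLF5 lists had a peak within 1 kb, as in 70 of the 74. The same was true of 426 of the 452 lower peaks with KLF5 within 1 kb, so it was not particular to the strong peaks. The shortest distance in the whole class was 3 bp.

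Strong KLF5-free peaks stood near each other. Another of them lay within 10 kb of 1029 of the 6397 (16.1%, 15.2 to 17.01), where 6.91% of all CEBPB peaks had such a neighbour. Of the lower peaks without KLF5, 5.83% (5.65 to 6.02) had one, a difference of 10.3 points (9.35 to 11.2; adjusted Fisher exact p = 2.7e-162, over a family of 12). The share was higher in the strong peaks on 23 of 23 chromosomes. The neighbours counted here were themselves chosen by signal and by lack of KLF5 overlap. Nearness among strong KLF5-free peaks is also mutual, so both peaks of a close pair are counted. The interval and the p-value treat peaks as independent, so this difference is a description. The same limits hold for the other comparisons of such neighbours below. At 1 kb the shares were 3.77% and 1.02%, and at 100 kb 55.8% and 33.7%. The median distance between a strong KLF5-free peak and the nearest other one was 78.3 kb, with a minimum of 51 bp and the middle 50% between 22.004 and 222 kb.

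Peaks of any strength were also slightly more frequent around them. Another CEBPB peak lay within 10 kb of 52.9% of the strong KLF5-free peaks and 49.5% of the lower peaks, where 49.9% of all CEBPB peaks had one. The difference of 3.41 points (2.13 to 4.70) passed the threshold (adjusted Fisher exact p = 5.1e-07). By chromosome, the share was higher in the strong peaks on 20 of 23 and lower on chromosomes 16, 20 and 21. At 100 kb nearly every peak had a neighbour, at 98.0% and 98.1%, and the difference of -0.16 points did not pass (adjusted Fisher exact p = 0.464). Among CEBPB peaks of a q-value of 0.05 or less, ranked anew, the shares were 93.4% and 90.4%, and the difference of 2.95 points passed in the other direction (adjusted Fisher exact p = 2.8e-07).

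No difference in spacing between the strongest peaks without and with KLF5 passed the threshold with the classes as defined, although some did under other definitions. A strong KLF5-free peak lay within 10 kb of 16.1% of the other strong KLF5-free peaks and of 14.4% (11.5 to 17.6) of the 543 strongest peaks with KLF5. The difference of 1.72 points (-1.60 to 4.57) did not pass the threshold (adjusted Fisher exact p = 0.438). For another CEBPB peak of any strength within 10 kb the shares were 52.9% and 56.9%, and the difference of -4.02 points (-8.30 to 0.35; adjusted Fisher exact p = 0.126) did not pass either. When a KLF5 peak within 500 bp was counted as overlapping, that difference was -6.04 points and passed (adjusted Fisher exact p = 0.0095). Under the same definition, any CEBPB peak within 1 kb differed by -4.14 points (adjusted Fisher exact p = 0.0097) and another strong KLF5-free peak within 1 kb by 2.22 points (adjusted Fisher exact p = 0.0068), and both passed. The latter shares were 3.76% without and 1.54% with KLF5, against 3.77% and 4.05% with the classes as defined. A strong peak beside one with KLF5 can have the same KLF5 peak within 500 bp. It then leaves the KLF5-free class, so that call is in part built into the definition. Within 100 kb, the shares with another strong KLF5-free peak were 55.8% and 60.04%, and the difference of -4.26 points did not pass (adjusted Fisher exact p = 0.117). That difference was -7.11 points with the strongest 20% (adjusted Fisher exact p = 7.9e-05) and -5.72 points with the Calu-3 KLF5 list only (adjusted Fisher exact p = 0.046), and it passed in both. Both classes differed in signal, with median percentiles of 94.7 and 98.1. In the highest 25% of the strongest peaks by signal, another strong KLF5-free peak lay within 10 kb of 17.9% of the 1421 KLF5-free peaks and 15.8% of the 317 peaks with KLF5.

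**Figure D3:**
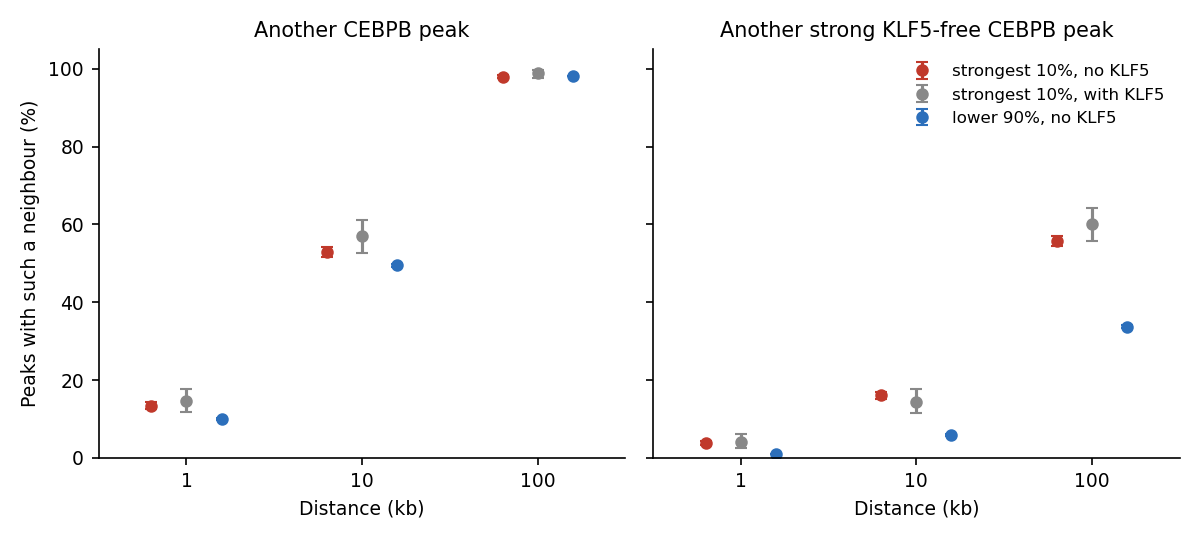
Share of peaks (y axis, %) with another CEBPB peak (left) or another strong KLF5-free CEBPB peak (right) within 1, 10 or 100 kb (x axis), for the strongest 10% without KLF5 (red), the strongest 10% with KLF5 (grey) and the lower 90% without KLF5 (blue), with exact 95% intervals. On the right, the blue points lie below the red and grey ones.

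Local groups of strong KLF5-free peaks reached 7 peaks in 100 kb. Of the windows of 100 kb that started at such a peak and ran towards higher positions, 64.7% held no other. The 2 largest groups were at chr1:234737451-234820289, where 7 of 8 CEBPB peaks of the window belonged to the class, and at chr7:130565591-130645395, where 7 of 15 did. Positions are given up to the end of the last strong KLF5-free peak, whereas peaks were counted over the full 100 kb. Signal was higher in the first, with a median percentile of 97.5 and a range from 94.2 to 99.3, than in the second, with a median of 92.4 and a range from 90.9 to 95.9. Groups of 6 stood at chr2:46526670-46563438 within 36.8 kb, at chr3:189934937-190032871 and at chr3:100235134-100295601. None of these 5 windows held a KLF5 peak of either line, and 81.6% of the 6397 windows held none either.

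Strong KLF5-free peaks were spread over the chromosomes differently from the weaker CEBPB peaks. Of 24 chromosomes, 8 held a higher share of them than of the lower 90% without KLF5 (chromosomes 1, 4, 6, 12, 13, 15, 21 and X) and 7 a lower share (chromosomes 3, 5, 7, 14, 18, 19 and Y; Fisher's exact test, adjusted over 24). Chromosome 6 held 347 of the 6397 (5.42%, 4.88 to 6.01) and 3.002% of the lower peaks (adjusted Fisher exact p = 1.4e-20). On that chromosome 15.4% of all CEBPB peaks belonged to the class, and on chromosome 13 it was 16.2%, where 9.22% of the whole list did. Chromosome X held 3.44% of the strong KLF5-free peaks and 2.30% of the lower peaks (adjusted Fisher exact p = 3.6e-07).

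Chromosomes 5, 3 and 19 had the largest deficits. Chromosome 5 held 420 strong KLF5-free peaks (6.57%, 5.97 to 7.20), against 9.39% of the lower peaks (difference -2.82 points, -3.45 to -2.15; adjusted Fisher exact p = 1.1e-13). For chromosome 3 the shares were 8.83% and 11.0% (difference -2.16 points), and for chromosome 19 they were 1.86% and 2.94%, so that 5.95% of the CEBPB peaks of chromosome 19 belonged to the class. Shares of a class have a fixed total, so the 24 tests are not independent. With lower peaks of a q-value of 0.05 or less, 5 chromosomes were higher, and among CEBPB peaks of such q-values ranked anew, 2 were higher and 4 lower. Chromosomes 5, 6, 13 and 19 passed the threshold under every alternative run, as did chromosome 3 wherever it was included, whereas chromosome X missed it in that new ranking (adjusted Fisher exact p = 0.0501).

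Against the strongest peaks with KLF5, by contrast, 2 chromosomes differed and both held fewer strong KLF5-free peaks. Chromosome 20 held 141 of them (2.20%) and 39 of the 543 peaks with KLF5 (7.18%, difference -4.98 points, -7.49 to -3.05; adjusted Fisher exact p = 6.7e-08). Chromosome 19 held 1.86% and 4.42% (difference -2.56 points; adjusted Fisher exact p = 0.0044). Chromosomes 5 and 3 held 6.57% and 8.83% of the strong KLF5-free peaks, against 5.71% and 8.29% of the peaks with KLF5. Neither of these differences passed the threshold. KLF5 overlap chose both classes. With the Calu-3 KLF5 list alone, the difference on chromosome 20 was -2.99 points and still passed (adjusted Fisher exact p = 0.0088). That on chromosome 19 was then -2.06 points and did not pass the threshold (adjusted Fisher exact p = 0.0599), and it also missed it with the strongest 5% and with CEBPB peaks of a q-value of 0.05 or less.

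**Figure D4:**
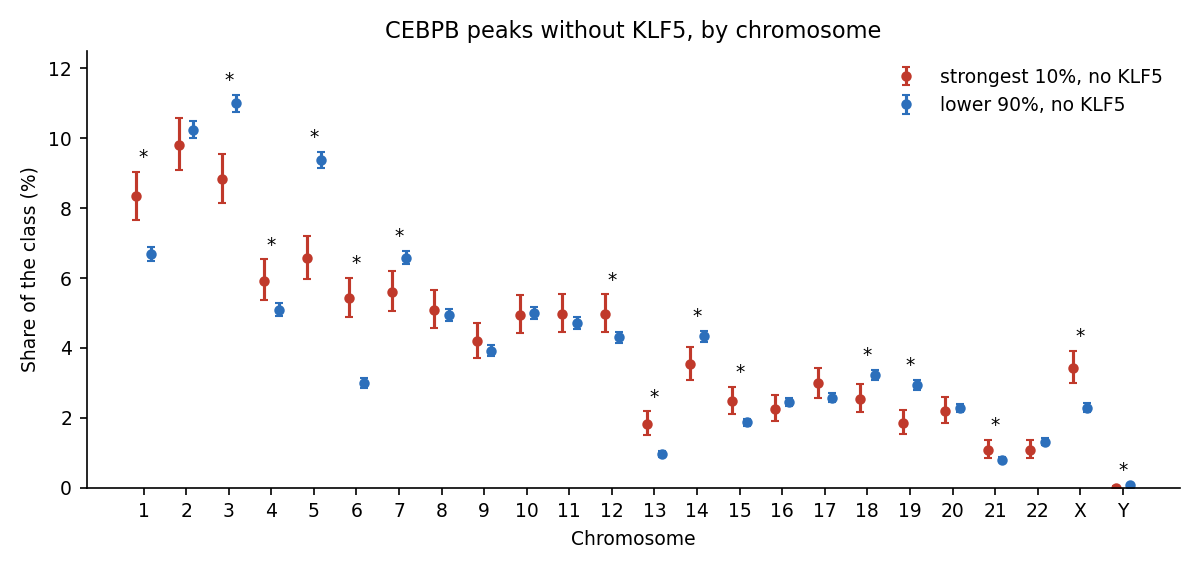
Share of each class (y axis, %) on each chromosome (x axis) for the strongest 10% (red, 6397 peaks) and the lower 90% (blue, 61765 peaks) of the CEBPB peaks without KLF5, with exact 95% intervals; an asterisk marks an adjusted p of 0.05 or less. The red point lies above the blue one on chromosomes 1, 6, 13 and X and below it on chromosomes 3, 5 and 19.

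Within chromosomes the placement was uneven too. In 498 bins of 5 Mb with at least 50 CEBPB peaks, the median share of strong KLF5-free peaks among CEBPB peaks was 9.54%, with 80% of the bins between 3.70% and 17.2%. The first 5 Mb of chromosome 5 held more CEBPB peaks than any other bin, 427, yet 2 of them were strong KLF5-free peaks (0.468%, 0.0568 to 1.68). The first 5 Mb of chromosome 2 likewise held 2 of 207. The lowest were 3 bins with no strong KLF5-free peak. They lay at 10 to 15 Mb of chromosome 21 (0 of 94), 50 to 55 Mb of chromosome 11 (0 of 57) and 190 to 195 Mb of chromosome 4 (0 of 57). At the other end, 18 of 64 CEBPB peaks between 80 and 85 Mb of chromosome 4 belonged to the class (28.1%, 17.6 to 40.8), as did 23 of 82 between 70 and 75 Mb of that chromosome. Across the 498 bins, the share fell with the number of CEBPB peaks (Spearman rho = -0.46), a description in which the count is also the denominator of the share.

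At a like signal, the strong KLF5-free peaks of some regions had a far higher −log10 p than the rest. Between percentiles 90 and 93 of signal, the 2013 peaks had a median −log10 p of 11.4, with the middle 50% between 10.01 and 13.4. The 5 peaks of this band between 35 and 40 Mb of chromosome 17 had values of 19.9, 27.1, 38.6, 46.1 and 55.5, all above that middle range. They were at chr17:36781166-36781430, chr17:37009978-37010159, chr17:38773982-38774219, chr17:38600019-38600290 and chr17:38254571-38254813, in the order of the values.

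That bin was picked because its median −log10 p in the band, 38.6, was the highest of 176 bins. All of its 18 strong KLF5-free peaks, among 102 CEBPB peaks, had a median −log10 p of 47.2 at a median signal percentile of 94.5, against 18.1 at percentile 94.7 for the other 6379. The 18 include the 5 peaks that led to the choice of the bin, so they are no separate check of it. Of the 176 bins with at least 5 peaks in the band, the next 5 by median −log10 p were all on chromosome 3, at 125 to 130 Mb (20.4), 170 to 175 Mb (19.9), 155 to 160 Mb (19.1), 150 to 155 Mb (18.7) and 185 to 190 Mb (17.8). By chromosome, the medians in the band ranged from 9.96 on chromosome 21 to 14.4 on chromosome 20. These medians rest on 22 to 189 peaks and those of the bins named here on 5 to 7. The spread between chromosomes and that between bins can therefore not be compared directly. A high −log10 p at a modest signal was not particular to the class. The lower peaks without KLF5, all with a signal of 5.43 or less, reached a −log10 p of 89.1. Over all 6397 peaks both values ranked the peaks alike (Spearman rho = 0.91), and 67 of the 100 highest by p were among the 100 highest by signal. Both values come from the same peak calls, so this is a description, and its cause was not tested.

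**Figure D5:**
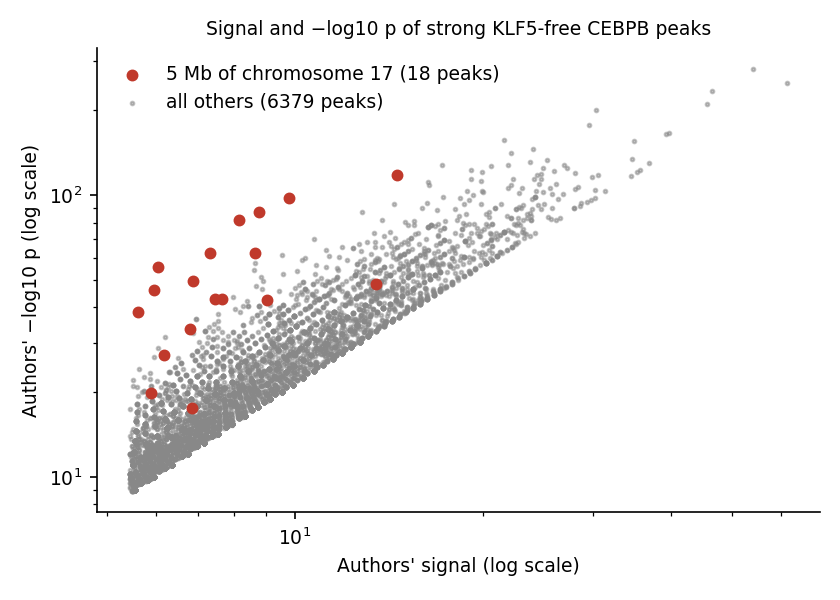
The authors' −log10 p (y axis, log scale) against the authors' signal (x axis, log scale) for each strong KLF5-free CEBPB peak, with the 18 peaks between 35 and 40 Mb of chromosome 17 in red and the other 6379 in grey. Most red points lie above the grey points of like signal, and the bin was picked for its high −log10 p.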

How the data were processed

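Peak lists of 3 groups, each made from both samples per the series' design text, were used as deposited by the authors. The build is hg19, as both the track lines of the files and the submitters' processing notes give it. The authors' signal (normalization not stated), the deposited −log10 p-values and −log10 q-values and the summit offset, a position with no other unit, were read. The lists are named as IDR peaks per the file headers; aligner, caller and control library are not given in the sources used here. CEBPB peaks were ranked by signal with average ranks. Distances are bases between peak edges. Fisher's exact test, two-sided, was used for shares, with Benjamini-Hochberg adjustment within each family of 24, 12, 9 or 3 tests. The scripts ran in Python 3.11.15 with scipy 1.17.1, pandas 2.3.3 and statsmodels 0.14.6, and the overlap and distance functions were tested on simulated data.

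The peaks named are the 10 strongest, the 5 strongest with KLF5, 5 within 1 kb of KLF5, the 5 windows with most peaks, and peaks at the threshold. The class, the comparisons and the rule for named regions were chosen with earlier results of these data known. The 5 Mb bins, the comparison of p at similar signal, the shares by rank, the direction within chromosomes, the test of the line of the nearby KLF5 peak and the filter on the q-values of the compared peaks were added later, after values had been seen. Promoter, motif and gene-list analyses that had been planned were not run, since no hg19 annotation or sequence was used here.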

Additional observations from a re-analysis of the deposited data

How the results depend on the processing

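The number of strong KLF5-free peaks was 3037 (87.7% of the strongest) with the strongest 5%, 13190 (95.05%) with the strongest 20%, and 2800 (87.2%) among CEBPB peaks of a q-value of 0.05 or less. Their share was 92.9% when KLF5 summits had to lie within 100 bp and 93.9% with the Calu-3 KLF5 list only. Chromosomes with a higher and a lower share than the lower peaks numbered 5 and 4 with the strongest 5%, and 2 and 4 with the q-value filter. The higher ones numbered 5 when the lower peaks alone were filtered by q-value, and chromosome 4 had a difference of -0.047 points when peaks were ranked by −log10 q. Against the strongest peaks with KLF5, the count of chromosomes held higher was 2 with the strongest 20% and 1 each with KLF5 summits within 100 bp, the Calu-3 KLF5 list only and all peaks set to 200 bp. The count of lower ones was 1 each with the strongest 5%, the Calu-3 list only, the q-value filter and without chromosomes 3 and 20. Differences to the lower peaks at 10 kb kept their direction and passed the threshold under all alternatives run, from 2.38 to 4.05 points for KLF5 of either line (1.37 for Calu-3 KLF5 when that list alone was used), from 4.50 to 11.4 for another strong KLF5-free peak and from 2.69 to 11.2 for any CEBPB peak. The difference in CEBPB peaks within 100 kb was 0.31 points with the strongest 5%, 0.27 ranked by −log10 q and 2.95 with the q-value filter, which passed the threshold. Against the strongest peaks with KLF5, that in strong KLF5-free peaks within 10 kb was -1.59 points with the strongest 20%, and that in CEBPB peaks within 10 kb was -6.04 with KLF5 counted within 500 bp. At 1 kb, the difference in strong KLF5-free peaks was 0.084 points with the strongest 20%, 0.44 with summits within 100 bp, 2.22 within 500 bp (passing the threshold), 1.46 with the Calu-3 list only and 0.035 with 200 bp peaks, and that in CEBPB peaks was 0.53 with summits within 100 bp and 1.88 with the Calu-3 list only. Counting KLF5 within 500 bp itself takes strong peaks near KLF5 out of the KLF5-free class. The cause of these changes was not tested. Merging changed no value, since no CEBPB entries overlapped. No paired analysis was possible because each list pools both samples, and for the same reason neither sample could be left out.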
